A study of Mus musculus with 6 samples.

Results

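The genes described here were the 4 EGR genes (Egr1, Egr2, Egr3 and Egr4), the 3 NR4A genes (Nr4a1, Nr4a2 and Nr4a3) and Npas4, which are 8 of the 55421 genes counted. They were picked by symbol, and as a set in which some paralogs stood higher and others lower in the insB:9-23 group, so the values that chose them are those of the comparison below. These values are therefore given as a description, with no test. All 8 passed the filter on low counts, Egr3 through the vehicle libraries, where it was higher. The data were RNA-seq read counts from pancreatic islets of wild-type (WT) C57BL/6 mice, in 3 libraries given the ligand insB:9-23 and 3 given vehicle. By its name insB:9-23 is a peptide from the B chain of insulin, a stretch known as a target of autoimmunity against islets. The sources used here do not give the dose, the duration of treatment or the age of the mice, nor whether mice or isolated islets received the ligand, nor whether a library holds 1 animal or a pool. P-values thus cover no more than library-to-library spread, part or all of which could be technical.

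EGR proteins are zinc-finger activators that bind a GC-rich site, and their corepressors NAB1 and NAB2 hold them in check. NR4A proteins are nuclear receptors that act without a known hormone, as monomers on an element called NBRE or as partners of RXR. NPAS4 is a bHLH-PAS factor that pairs with ARNT or ARNT2 and answers to calcium entry. All are immediate-early factors: their genes are transcribed within minutes of a stimulus, from transcription factors already present, chiefly SRF with ELK partners at the CArG box and CREB at the CRE. In beta cells, glucose and depolarisation are known inducers of several of them.

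The start regions of 4 of these genes are shown as examples of windows with matches to elements known from early-response genes. The windows run from 250 bases before to 50 after the start, come from RefSeq on build GRCm38.p6, and were found for 6 of the 8 genes. No entry was matched for Egr1 and Egr3. Capitals mark the matches to the CArG box, to the EGR site GCGNGGGCG, and to the CRE half-site TGACG, which reads CGTCA on the other strand.
Nr4a1 (chr15:101266596-101266895, plus strand): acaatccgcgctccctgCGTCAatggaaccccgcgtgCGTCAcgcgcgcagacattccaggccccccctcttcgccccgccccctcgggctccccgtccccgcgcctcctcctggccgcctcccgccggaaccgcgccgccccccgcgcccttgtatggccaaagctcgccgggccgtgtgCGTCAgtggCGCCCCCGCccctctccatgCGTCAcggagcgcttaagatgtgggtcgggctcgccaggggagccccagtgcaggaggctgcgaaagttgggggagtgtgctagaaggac
Nr4a2 (chr2:57123954-57124253, minus strand): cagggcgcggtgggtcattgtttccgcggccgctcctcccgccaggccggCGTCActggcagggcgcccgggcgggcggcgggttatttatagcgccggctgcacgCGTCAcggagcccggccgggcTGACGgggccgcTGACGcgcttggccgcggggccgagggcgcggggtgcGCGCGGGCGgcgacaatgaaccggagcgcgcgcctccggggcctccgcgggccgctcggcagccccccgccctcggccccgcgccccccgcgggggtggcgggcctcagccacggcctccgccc
Npas4 (chr19:4989922-4990221, minus strand): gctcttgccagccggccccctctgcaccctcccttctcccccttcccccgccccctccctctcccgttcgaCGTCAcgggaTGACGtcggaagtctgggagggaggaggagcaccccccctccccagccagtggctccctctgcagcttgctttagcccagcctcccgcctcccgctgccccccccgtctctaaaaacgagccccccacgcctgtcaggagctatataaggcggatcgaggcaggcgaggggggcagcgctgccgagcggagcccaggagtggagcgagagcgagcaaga
Egr2, the third of its 5 annotated starts (chr10:67537619-67537918, plus strand): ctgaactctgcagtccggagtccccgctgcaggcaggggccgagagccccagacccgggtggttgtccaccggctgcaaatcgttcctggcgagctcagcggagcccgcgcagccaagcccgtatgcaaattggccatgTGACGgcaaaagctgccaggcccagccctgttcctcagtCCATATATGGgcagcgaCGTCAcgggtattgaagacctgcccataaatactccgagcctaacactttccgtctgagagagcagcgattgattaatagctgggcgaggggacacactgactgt

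The CRE half-site was present in at least 1 window of all 6 matched genes, and 23.0% of the 27025 genes with a window have it on either strand. Nr4a1, Nr4a2 and Nr4a3 held 4 copies each, and Egr4 and Npas4 held 2. The CArG box was found at 4 of the 5 Egr2 starts and in no other matched gene, against 1.81% of all genes. The windows of Egr2 starts 3, 4 and 5 overlap and hold the same box. The EGR site was found in Nr4a1 and Nr4a2, against 6.27% of all genes. The full CRE TGACGTCA, which contains the half-site, and the NBRE AAAGGTCA matched in none of these windows, against 2.03% and 1.70% of all genes. These matches describe letters in a window, not bound sites.

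On build GRCm38 with GENCODE M21, Egr1 lies on chromosome 18 (34859823 to 34864984), Egr2 on chromosome 10 (67535475 to 67542188), Egr3 on chromosome 14 (70077203 to 70082614) and Egr4 on chromosome 6 (85511121 to 85513589). Nr4a1 lies on chromosome 15 (101254269 to 101274795), Nr4a2 on chromosome 2 (57106830 to 57124003), Nr4a3 on chromosome 4 (48045153 to 48086447) and Npas4 on chromosome 19 (4984355 to 4990316). All are protein-coding, and no other annotated gene overlaps any of them. No run of 50 bases of the transcripts of 7 of these genes occurred in a transcript of another gene. Nr4a3 was the exception, with 0.15% of its runs shared. The longest identical stretch between EGR paralogs was 44 bases, between Egr2 and Egr3, and that between NR4A paralogs was 27 bases, between Nr4a2 and Nr4a3. No read length is stated in the sources used here.

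The 8 genes spanned a wide range of levels, and their order was much the same in both groups. Levels are CPM (counts scaled to a common library size with TMM factors) per kb of exon, as mean ± SD over n = 3 libraries. Egr1 was the most abundant, at 148 ± 5.51 with insB:9-23 and 112 ± 6.82 with vehicle. Nr4a1 came next, at 40.4 ± 3.57 and 27.5 ± 1.23, followed by Npas4, at 12.8 ± 1.55 and 11.9 ± 1.94. Nr4a2 stood at 3.66 ± 0.312 with insB:9-23 and 3.24 ± 0.427 with vehicle, and Egr2 at 1.18 ± 0.142 and 0.741 ± 0.128. Egr4 was at 0.661 ± 0.0392 with insB:9-23 and 0.392 ± 0.178 with vehicle, and Nr4a3 at 0.280 ± 0.0237 and 0.249 ± 0.0821. Egr3 was the lowest of the 8 with insB:9-23, at 0.0356 ± 0.0289, and sixth with vehicle, at 0.604 ± 0.273. Every neighbouring pair in this order was separated in the insB:9-23 libraries. In the vehicle libraries the first 5 genes were separated, whereas Egr2 overlapped Egr3, Egr3 overlapped Egr4 and Egr4 overlapped Nr4a3.

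**Figure D1:**
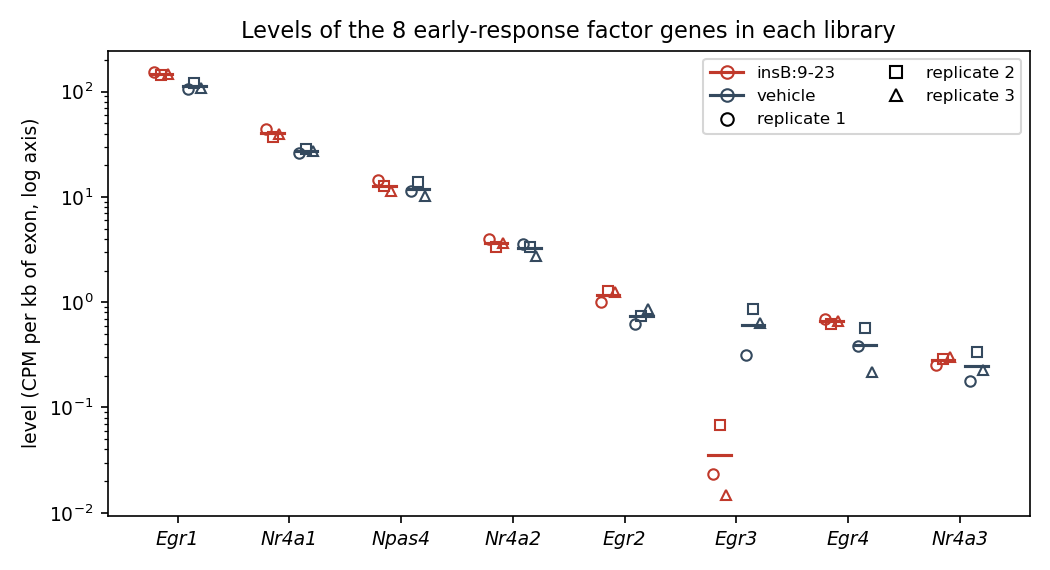
Level of each gene in each library, in CPM per kb of exon on a log axis, with insB:9-23 in red and vehicle in dark grey, and the bar at the mean of 3 libraries. Symbols mark the replicates (circle 1, square 2, triangle 3), and Egr3 is the gene whose groups lie farthest apart, at a mean of 0.0356 against 0.604.

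Of the 8 genes, 7 had a log2 fold change above 0 (insB:9-23 over vehicle), where 51.5% of the 17016 genes tested did. The libraries of the groups did not overlap for 4 genes that were higher (Egr1, Egr2, Egr4 and Nr4a1), where 6.40% of all genes tested were higher in this way. Egr3 was the 1 gene that was lower without overlap, where 7.12% of all genes tested were. Nr4a2, Nr4a3 and Npas4 overlapped. The set was chosen from this comparison, so nothing is read from these counts.

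Egr1, the prototype of the zinc-finger family, had 691, 642 and 663 CPM in insB:9-23 replicates 1 to 3, against 481, 538 and 490.5 CPM in vehicle replicates 1 to 3. The lowest insB:9-23 library lay above the highest vehicle library. The means were 665 ± 24.7 and 503 ± 30.6 CPM (SD, n = 3 each), a log2 fold change of 0.40 ± 0.07 (SE). The highest library of a group was 1.08 times the lowest with insB:9-23 and 1.12 times with vehicle, so Egr1 was steady within groups.

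Egr2, also called Krox20 and known for its part in hindbrain patterning and myelination, had 3.45, 4.32 and 4.24 CPM in the insB:9-23 libraries, against 2.09, 2.5 and 2.96 CPM in the vehicle libraries. These rest on 202, 243 and 194 counts with insB:9-23 and 132, 156 and 158 with vehicle. The groups did not overlap, although the gap between them was narrow. The log2 fold change was 0.67 ± 0.21 (SE). Egr4, the least studied EGR gene, had 1.502, 1.33 and 1.42 CPM in the insB:9-23 libraries, against 0.823, 1.23 and 0.468 CPM in the vehicle libraries. Its insB:9-23 libraries were close together, while its highest vehicle library was 2.63 times its lowest. The log2 fold change was 0.75 ± 0.40 (SE), with 88, 75 and 65 counts in the insB:9-23 libraries and 52, 77 and 25 in the vehicle libraries. Without vehicle replicate 2 it was 1.13, and without vehicle replicate 3 it was 0.46.

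Egr3, which together with Egr2 is known to restrain T cell activation and which also serves in muscle spindles, went the other way. It had 6, 17 and 3 counts in insB:9-23 replicates 1 to 3, against 88, 236 and 150 in vehicle replicates 1 to 3. In CPM these are 0.102, 0.302 and 0.0655, against 1.39, 3.78 and 2.81. Every insB:9-23 library lay below every vehicle library. The lowest of them held 3 counts, which was the floor set here for telling a count from 0. The mean was 17.0-fold lower with insB:9-23, a log2 fold change of -4.05 ± 0.71 (SE). Both groups were uneven: the highest library was 4.61 times the lowest with insB:9-23 and 2.71 times with vehicle. Without insB:9-23 replicate 2, which held 17 of the 26 counts of its group, the log2 fold change was -4.93, the lowest of 17 alternatives, of which the highest was -3.63.

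**Figure D2:**
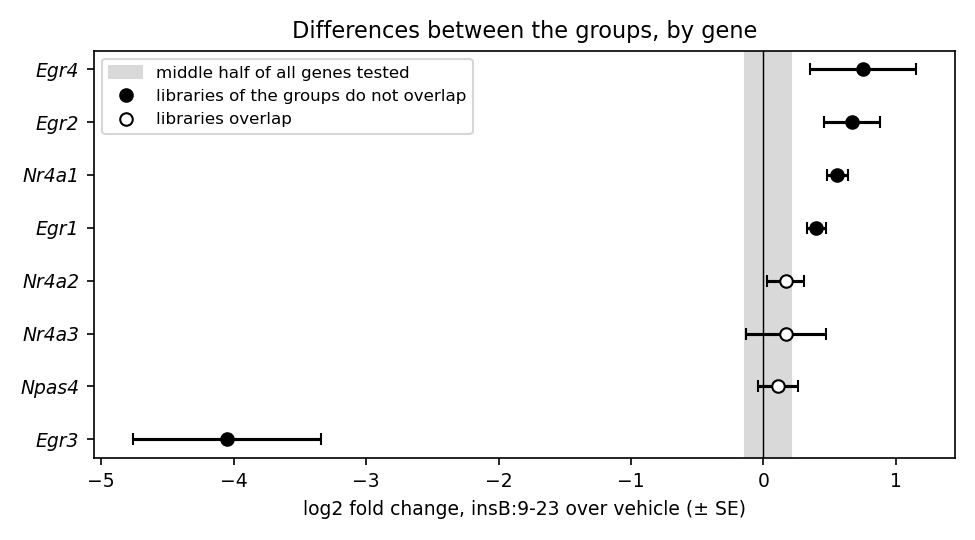
Log2 fold change of each gene, insB:9-23 over vehicle, with bars of 1 SE from the edgeR fit across all genes; filled points are genes whose libraries do not overlap between the groups, and the grey band spans the interquartile range of all genes tested (-0.14 to 0.21). Egr4, Egr2, Nr4a1 and Egr1 lie above the band, Egr3 lies far below it at -4.05, and Nr4a2, Nr4a3 and Npas4 lie inside it.

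Among the NR4A genes, Nr4a1 (Nur77) had the separated groups. It had 155, 130.4 and 140.1 CPM in the insB:9-23 libraries, against 92.1, 101 and 96.5 CPM in the vehicle libraries. The means were 142 ± 12.5 and 96.4 ± 4.31 CPM (SD, n = 3 each), a log2 fold change of 0.56 ± 0.08 (SE). Nr4a2 (Nurr1), best known for the development of dopamine neurons, had 16.1, 13.6 and 14.9 CPM in the insB:9-23 libraries, against 14.6, 13.7 and 11.2 CPM in the vehicle libraries. Its groups overlapped, with a log2 fold change of 0.17 ± 0.14 (SE). Nr4a3 (Nor1) had 1.52, 1.73 and 1.79 CPM in the insB:9-23 libraries, against 1.08, 2.04 and 1.37 CPM in the vehicle libraries. The highest of all 6 was a vehicle library, and the log2 fold change of 0.17 ± 0.30 (SE) was smaller than its error. It was -0.02 without vehicle replicate 1 and 0.46 without vehicle replicate 2.

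Npas4, the calcium-regulated factor, had 59.8, 52.1 and 47.1 CPM in the insB:9-23 libraries, against 47.2, 58.0 and 42.3 CPM in the vehicle libraries. The groups overlapped almost fully. The means were 53.0 ± 6.43 and 49.2 ± 8.04 CPM (SD, n = 3 each), with a log2 fold change of 0.11 ± 0.15 (SE). By library totals alone it was -0.04, where the median of all genes was -0.15.

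Ratios between paralogs within a library do not depend on how libraries are scaled. Egr3 had 0.148, 0.471 and 0.0989 counts per 1000 Egr1 counts in the insB:9-23 libraries, against 2.90, 7.03 and 5.73 in the vehicle libraries. Egr2 had 4.99, 6.74 and 6.39 per 1000 Egr1 counts with insB:9-23, against 4.35, 4.65 and 6.04 with vehicle. The set was chosen from this comparison, so these ratios are given as a description. Between the groups Egr3 did not overlap by this ratio, whereas Egr2 did. Egr4 overlapped as well, with 2.17, 2.08 and 2.14 per 1000 with insB:9-23, against 1.71, 2.29 and 0.955 with vehicle. In the vehicle libraries Egr3 made up 0.287%, 0.694% and 0.566% of all EGR counts and Egr2 0.431%, 0.458% and 0.596%, so these paralogs were of like abundance there. With insB:9-23, Egr3 made up 0.0147%, 0.0467% and 0.0098%, and Egr2 0.496%, 0.667% and 0.634%. Egr1 made up 98.6% to 99.3% of EGR counts in every library.

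Nr4a2 had 104, 104 and 106 counts per 1000 Nr4a1 counts in the insB:9-23 libraries, against 158, 136 and 117 in the vehicle libraries. These groups did not overlap, which is again only a description, as the set was chosen from this comparison. Nr4a3 had 9.78, 13.2 and 12.8 per 1000 Nr4a1 counts with insB:9-23, against 11.7, 20.2 and 14.2 with vehicle, and these overlapped. Nr4a1 made up 89.4% to 89.8% of NR4A counts with insB:9-23 and 85.5% to 88.4% with vehicle.

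**Figure D3:**
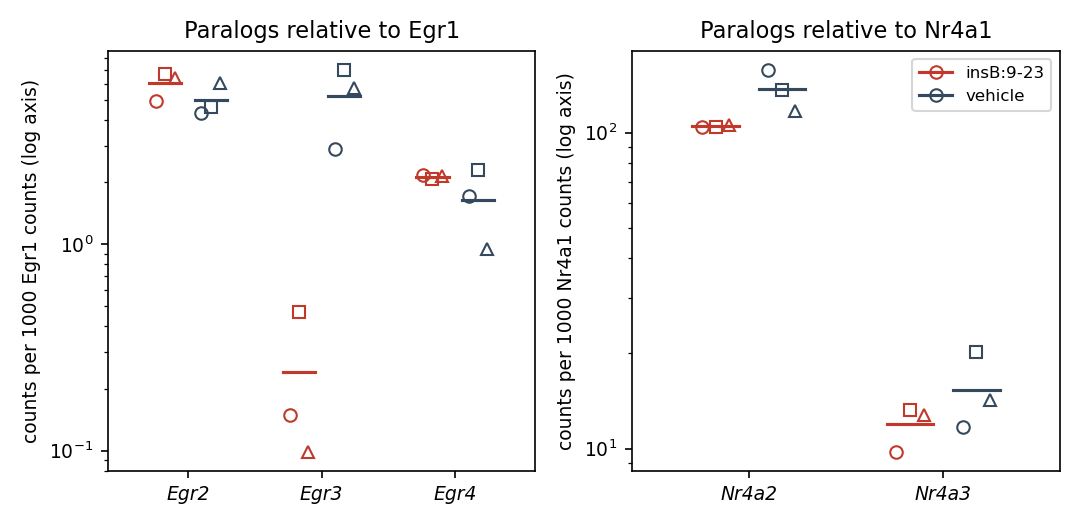
Counts of each minor paralog per 1000 counts of the major one in the same library, on log axes (left, EGR genes relative to Egr1; right, NR4A genes relative to Nr4a1), insB:9-23 in red and vehicle in dark grey, with the bar at the mean and symbols for replicates 1 (circle), 2 (square) and 3 (triangle). Egr3 lies between 0.0989 and 0.471 with insB:9-23 and between 2.90 and 7.03 with vehicle, while Egr2 and Egr4 overlap.

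Across the 6 libraries the members did not vary as 1 block. With values centred within each group, Egr1 and Nr4a1 had r = 0.83, Egr1 and Npas4 r = 0.79, and Egr4 and Npas4 r = 0.80 (Pearson, log2 CPM). Egr3 had r = 0.14 with Egr1, -0.20 with Nr4a1 and 0.51 with Egr2, and Egr2 had r = -0.93 with Nr4a2. These describe 6 points that share library, depth and islet preparation.

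The genes with the most similar pattern over the 6 libraries were sought among 9958 or 9959 genes with a mean of at least 5 CPM, as a description only. For Egr1 they were Tmc7 (r = 0.995), Fosb (0.988) and Nr4a1 (0.986), and 0.894% of the genes searched had r over 0.9. For Nr4a1 they were Dclk2 (0.989), Egr1 (0.986) and Trappc6a (0.985). For Egr2 they were Vkorc1 (0.993), Nfkbiz (0.990) and Dnaja1 (0.988), and for Egr4 Cnot6l (0.991), Tmprss2 (0.988) and Fam169a (0.986). For Egr3 they were Ap3b2 (0.996), Lgalsl (0.993) and Prpf8 (0.992). The likeness includes the difference between the groups, so all 3 being lower with insB:9-23 follows from how they were found. Lgalsl was at 9.44 ± 2.01 CPM with insB:9-23 and 37.0 ± 9.96 with vehicle, Ap3b2 at 96.1 ± 1.88 and 106 ± 2.30 CPM, and Prpf8 at 322 ± 8.29 and 373 ± 10.0 CPM. For Nr4a2 they were Nat9 (0.996), Zfp637 (0.994) and Jak3 (0.977), for Nr4a3 Ptprg (0.977), Tipin (0.965) and Mpp6 (0.957), and for Npas4 Msi1 (0.975), Ptges (0.971) and Zfp386 (0.963).

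The genes that work around these factors were taken from 7 lists by role, 91 genes in all, of which 88 were tested. None passed the edgeR test at an adjusted p under 0.05, which called 0.0823% of all genes tested (0.0294% higher and 0.0529% lower). At an unadjusted p under 0.05 edgeR had 8 higher and 3 lower, or 12.5% of the 88, beside 5.55% of all genes. DESeq2 called 3 (Fosb, Rgs2 and Dusp8, all higher), beside 0.682% of all genes, and limma-voom called 0, beside 0.0999%. The median log2 fold change of the 88 was 0.08, beside 0.01 over all genes tested.

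Upstream, none of the 17 kinases and 17 transcription factors that drive immediate-early genes passed the test, with medians of 0.00 and -0.08. Rps6ka5 (MSK1), which phosphorylates CREB and histone H3, was at 9.57 ± 0.674 CPM with insB:9-23 and 6.93 ± 0.309 with vehicle (edgeR adjusted p = 0.88). Rps6ka3 (RSK2) was at 63.9 ± 3.13 and 72.8 ± 2.39 CPM, and Map2k1 (MEK1) at 51.7 ± 2.62 and 44.9 ± 4.13 CPM. Srf was at 21.6 ± 2.69 CPM with insB:9-23 and 20.3 ± 2.05 with vehicle, and Creb1 at 38.0 ± 7.51 and 33.1 ± 19.1 CPM. Crem, whose ICER product represses CRE genes, was at 10.1 ± 0.777 and 12.2 ± 2.18 CPM, Mrtfb, an SRF cofactor, at 13.8 ± 1.54 and 21.4 ± 6.60 CPM, and Mef2a, a calcium-responsive factor, at 20.98 ± 2.93 and 29.6 ± 6.27 CPM.

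The partners and corepressors held 7 genes, 6 of them tested, with a median of -0.02 and none past the test. Nab1 was at 28.1 ± 4.38 CPM with insB:9-23 and 23.4 ± 5.99 with vehicle, with an edgeR adjusted p of 0.90. Nab2, itself a known EGR target, was at 5.96 ± 0.518 and 6.99 ± 1.01 CPM, with an edgeR adjusted p of 0.89. Rxra, a partner of NR4A1 and NR4A2, was at 22.5 ± 17.8 and 30.2 ± 16.0 CPM, and Rxrb at 24.9 ± 4.40 and 19.1 ± 2.35 CPM. Arnt and Arnt2, the partners of NPAS4, were at 38.1 ± 0.781 and 28.7 ± 1.53 CPM with insB:9-23 and at 41.6 ± 3.07 and 27.1 ± 0.319 CPM with vehicle.

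Of the 13 MAP kinase feedback genes, which damp the signal that induces EGR genes, none passed the test and the median was 0.24. Dusp8 was at 23.6 ± 1.63 CPM with insB:9-23 and 17.5 ± 0.489 with vehicle (edgeR adjusted p = 0.60), Dusp16 at 18.5 ± 1.89 and 9.94 ± 4.38 CPM, and Spred2 at 6.46 ± 0.0937 and 5.13 ± 1.01 CPM. Dusp1 was at 77.8 ± 16.5 and 102 ± 49.8 CPM, and Dusp6 at 14.01 ± 3.45 and 16.2 ± 5.47 CPM.

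Of the 21 other early response genes, 20 were tested and none passed. Of these 20, 17 (85.0%) had a fold change above 0, beside 51.5% of all genes, and the median was 0.15. Rgs2, a G protein regulator and a known target of NPAS4 in beta cells, had 50.9, 64.7 and 55.1 CPM in the insB:9-23 libraries, against 30.9, 36.9 and 27.6 CPM in the vehicle libraries, with a log2 fold change of 0.84 ± 0.14 (SE; edgeR adjusted p = 0.37). Its groups were well apart, unlike those of Npas4. Per1, a clock gene with a CRE, was at 62.3 ± 7.55 and 43.0 ± 6.09 CPM, and Csrnp1 at 21.2 ± 1.73 and 17.5 ± 0.652 CPM, both with an edgeR adjusted p of 0.88. The 9 activity-regulated secretory and synaptic genes had a median of -0.01 and none past the test. Scg2 was at 3853 ± 822 CPM with insB:9-23 and 4978 ± 274 with vehicle, Syt4 at 88.0 ± 33.5 and 127 ± 6.93 CPM, and Pcsk1 at 461 ± 182 and 394 ± 55.6 CPM. Their adjusted p in edgeR was 0.88 for Scg2 and Syt4 and 0.93 for Pcsk1.

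The AP-1 genes, the other main immediate-early family, were 7, of which 6 were tested and none passed. All 6 had a fold change above 0, beside 51.5% of all genes, and their median log2 fold change was 0.67, although Fos was at -0.07 by library totals alone. Fosb had 669, 594 and 615 CPM in the insB:9-23 libraries, against 424, 451 and 400.0 CPM in the vehicle libraries, with a log2 fold change of 0.56 ± 0.08 (SE; edgeR adjusted p = 0.18), the same size as that of Nr4a1. Jun was at 709 ± 29.4 CPM with insB:9-23 and 632 ± 73.1 with vehicle, and Fos at 718 ± 391 and 658 ± 26.2 CPM. Single libraries decided several AP-1 values, that of Fos among them. Fos was at 267 CPM in insB:9-23 replicate 2, but at 929 and 958 CPM in insB:9-23 replicates 1 and 3. The vehicle libraries lay between 628 and 678 CPM. Without insB:9-23 replicate 2 the log2 fold change of Fos was 0.52 ± 0.06 (SE; edgeR adjusted p = 0.19). Junb was at 0 in vehicle replicate 1 and between 152 and 199 CPM in the other 5 libraries, and Jund was at 255 CPM in insB:9-23 replicate 1 and at most 16.7 CPM elsewhere. Such breaks were not rare: of the 11035 tested genes that reached 5 CPM in some library, 5.36% differed by 5-fold or more between libraries of 1 group, and so did 8 of 82 genes of the lists (Btg1, Btg2, Junb, Jund, Maff, Spry1, Spry2 and Vgf). This spread was looked at after the data were seen. Of the 8 factor genes, Egr1, Nr4a1, Nr4a2 and Npas4 reached 5 CPM, and none of these had a ratio of highest to lowest library above 1.37 in either group. Egr2, Egr3, Egr4 and Nr4a3 did not reach 5 CPM, so this says nothing of them. Egr3 had ratios of 4.61 with insB:9-23 and 2.71 with vehicle, and Egr4 had 2.63 with vehicle.

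**Figure D4:**
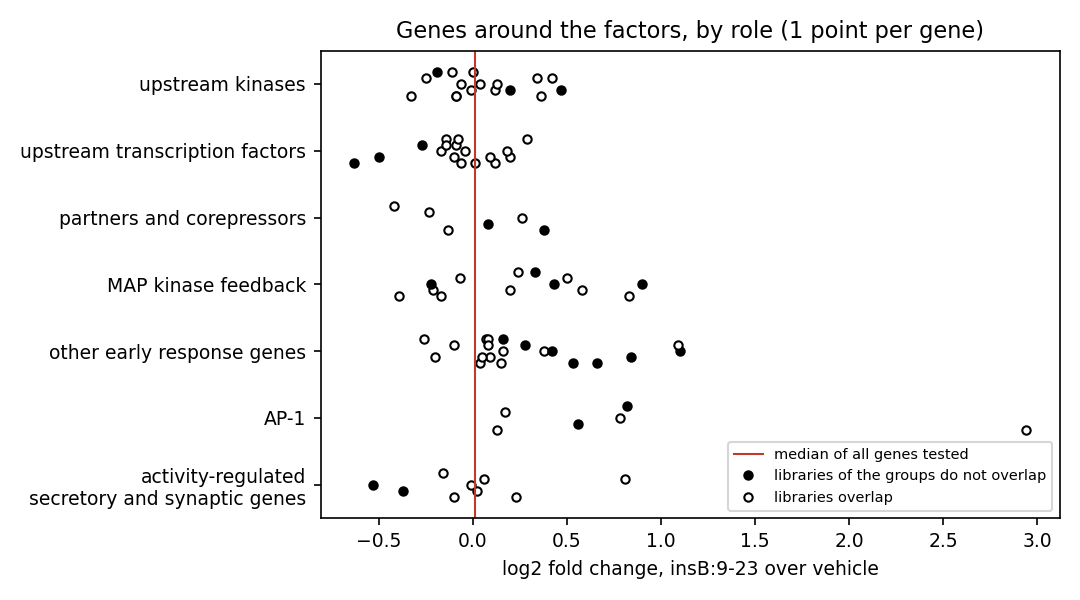
Log2 fold change of each tested gene of the 7 lists, insB:9-23 over vehicle, 1 point per gene, with lists down the page; filled points are genes whose libraries do not overlap between the groups, and the red line is the median of all genes tested (0.01). The point farthest right is Jund at 2.94, which rests on 1 library.

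Islet libraries are mixtures, and in such bulk samples fewer cells of a type and less RNA per cell cannot be told apart. The libraries held islet RNA by its defining markers. The 10 beta cell markers summed to between 118000 and 131000 CPM with insB:9-23 and between 114000 and 126000 CPM with vehicle. Ins1, Ins2 and Iapp made up most of these sums, and some other markers were uneven. Mafa was listed at 0 in all 6 libraries, and Nkx6-1 lay between 31.8 and 322 CPM. Pdx1 was at 54.3 CPM in vehicle replicate 1 and between 125 and 157 CPM elsewhere. The 11 acinar markers summed to 118000, 101000 and 198000 CPM in insB:9-23 replicates 1 to 3, against 90900, 99600 and 108000 CPM in vehicle replicates 1 to 3. With the acinar level as a covariate, chosen after the data were seen, the log2 fold change was 0.39 for Egr1, 0.53 for Nr4a1 and -3.63 for Egr3. Lymphocytes are a known source of Egr2, Egr3 and NR4A transcripts. The 9 T and NK cell markers summed to 4.90, 20.5 and 2.12 CPM with insB:9-23, against 4.24, 4.87 and 4.93 CPM with vehicle, and the 7 B and plasma cell markers to 13.7, 64.2 and 6.77 CPM, against 12.2, 10.4 and 12.3 CPM. No marker of these lists was at 0 in all libraries, but Cd3d was at 0 in insB:9-23 replicate 1 and Cd8a in insB:9-23 replicate 3. Both lists peaked in insB:9-23 replicate 2, the insB:9-23 library with the most Egr3, and so did the macrophage and dendritic cell list below. Over the 6 libraries Egr3 had r = 0.10 with the T and NK cell sum and -0.06 with the B and plasma cell sum. With the macrophage and dendritic cell sum it had r = 0.01. Centred within groups, these were 0.83, 0.76 and 0.94. The part of these cells in the Egr3 counts was not tested. The 8 macrophage and dendritic cell markers summed to 109, 174 and 79.6 CPM with insB:9-23, against 81.9, 107 and 109 CPM with vehicle. Without insB:9-23 replicate 2 the log2 fold change was 0.43 for Egr1, 0.61 for Egr2 and 0.61 for Nr4a1. The 7 handling stress genes, mostly heat shock chaperones, summed to 2590, 2930 and 2640 CPM with insB:9-23, against 2370, 3750 and 3620 CPM with vehicle. That list holds Hspa1b, which was at 0 in all 3 insB:9-23 libraries and in vehicle replicate 1, and at 1253 and 1195 CPM in vehicle replicates 2 and 3. It is a near-identical copy of Hspa1a, so the counts of both are uncertain. Without Hspa1b, left out after the data were seen, the other 6 summed to 2594, 2928 and 2635 CPM with insB:9-23, against 2366, 2502 and 2430 CPM with vehicle. Every insB:9-23 library was then above every vehicle library, as for Egr1, Nr4a1 and Fosb, which was not so with Hspa1b included. The reduced sum still holds Hspa1a, at 984 to 1114 CPM per library. Of these 6, Hsph1, Dnajb1 and Atf3 were higher without overlap, as 6.40% of all genes tested were, and the other 3 overlapped. Atf3, a stress-induced immediate-early factor, had 46.4, 43.5 and 116.8 CPM with insB:9-23, against 38.3, 37.2 and 37.6 CPM with vehicle. The part of handling stress in the Egr1 and Nr4a1 values was not tested. Total counts lay between 52052808 and 58880189 per library.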

How the data were processed

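Each library came with its own table of whole read counts by Ensembl gene ID, as deposited by the authors. Build GRCm38 and the tools HISAT, DESeq 1.8.3 and featureCounts 1.5.0-p3 stand, with no role, in the submitters' processing notes. The labels name TRIzol extraction and a KAPA stranded kit. Annotation release, strand setting and read length: not given in the sources used here. Symbols came from GENCODE M21 for 55240 of 55421 gene IDs (Mrtfa and Mrtfb through RefSeq synonyms). Group and replicate came from the sample titles.

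The deposited counts went into edgeR 4.0.16 (R 4.3.3): filterByExpr (17016 genes), TMM factors, robust quasi-likelihood F test of insB:9-23 against vehicle, and Benjamini-Hochberg adjusted p over all tested genes, called under 0.05. The SE of a log2 fold change is its size divided by the root of F. At these depths 3 counts are 0.0475 to 0.0655 CPM, and precision given covers counting and library spread only. Correlations used log2 CPM with a prior count of 1. Genes named are the 8 members, the 3 genes of smallest p in each list, 12 fixed genes and the 3 most similar genes of each member. The members, lists and tests were chosen with earlier results of these data known. Alternatives were other scalings, filters, DESeq2 1.42.0, limma-voom (limma 3.58.1), a block for replicate number, and leaving out each library in turn. Libraries of 1 group differed far beyond sampling noise (chi-square per degree of freedom 79.9 to 269), so none repeated another of its group. Libraries of different groups were not compared in this way. Promoter windows came from RefSeq (GRCm38.p6).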

Additional observations from a re-analysis of the deposited data

How the results depend on the processing

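The values showed no pairing by replicate number: deviations from the group means correlated at -0.0347, -0.0593 and -0.0294 between same-numbered libraries. Whether such libraries shared a day or an animal is not given in the sources used here. Under the replicate block 0 genes were called, against 14 in the unblocked fit, and the log2 fold change was 0.40 for Egr1 and 0.55 for Nr4a1. DESeq2 called 116 genes and 3 of the list genes, against 0 in edgeR. With the acinar level as a covariate, chosen after the data were seen, 9 genes were called. Leaving out 1 library gave 16 to 26 genes, with 25 without insB:9-23 replicate 1, 26 without insB:9-23 replicate 3 and 23 without vehicle replicate 1. The cause was not tested. The number of members with a fold change above 0 was 6 or 7 of 8 under every alternative run, and the order of levels was the same by longest transcript. Member fold changes that moved by more than 1 SD were those of Egr1 (0.25) and Nr4a1 (0.41) by library totals alone, where the median of all genes was -0.15, and that of Egr3 (-4.93) without insB:9-23 replicate 2. Npas4 (-0.04, library totals) and Nr4a3 (-0.02, without vehicle replicate 1) crossed 0. Of the recomputed fold changes of other named genes, 834 kept their direction and call, 4 passed the threshold under DESeq2 alone, and 29 changed sign, all of genes that edgeR did not call. By library totals alone these were Srf and Arnt2 (-0.07 each), Fos (-0.07), Dclk2 and Msi1 (-0.03 each), Ptprg (-0.09), Tipin (-0.12), Mpp6 (-0.14) and Ptges (-0.06). Fos was -0.08 with limma-voom and -0.07 under the block. With the acinar covariate Fos was -0.52, Srf -0.04 and Mpp6 -0.02. Leaving out 1 library at a time gave -0.13 to 0.52 for Fos, -0.21 to 0.53 for Creb1, -0.15 to 0.39 for Pcsk1, -0.01 to 0.06 for Tipin, -0.06 to 0.12 for Mpp6, -0.03 to 0.28 for Msi1, -0.01 to 0.19 for Ptges, a log2 fold change of Jund of -0.24 to 3.48, and a log2 fold change of Zfp386 of -0.47 to 1.67. Depth limits Egr3 with insB:9-23 (3 to 17 counts), Egr4 and Nr4a3 (under 130 counts in any library).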
